A study of Mus musculus with 2 samples.

Results

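The genes described here are 43 mouse genes of DNA replication and S phase, taken by symbol from a fixed list, of 32285 genes in the deposited matrices. They were followed in single cells of 2 cultures of myeloid-derived suppressor cells (MDSCs), immature myeloid cells known for dampening T cell responses. The Selinexor culture received 50 nM of Selinexor, an inhibitor of the nuclear export receptor exportin 1, and the DMSO culture received the vehicle. Both cultures were grown for 4 days with IL-6 and GM-CSF at 40 ng/mL each, and live CD11b+ cells were sorted from both before droplet capture (10x Genomics). Each culture gave 1 library, so no spread between cultures could be measured and no test or p-value is given. All intervals are 95% intervals that cover counting error only.

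Cells copy their DNA once per division. The MCM helicase is loaded on origins in G1 by ORC, Cdc6 and Cdt1, is switched on with Cdc45 and GINS at the start of S phase, and is followed by the polymerases, which the sliding clamp PCNA holds on the DNA. Many of these genes are targets of the E2F transcription factors and are transcribed from late G1 into S phase. In the neutrophil lineage, cells divide as promyelocytes and myelocytes, and the later stages leave the cell cycle.

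The Selinexor library held 1967 kept cells with 12841480 gene UMIs (unique molecular identifiers, counted molecules), and the DMSO library held 1743 kept cells with 14222344. Median depth was 3984 UMIs per cell in the Selinexor library and 7788 in the DMSO library, so shares of cells with a UMI were compared after thinning each cell to 2000 UMIs. This depth was reached by 1184 Selinexor cells (60.2%) and 1429 DMSO cells (82.0%). The libraries shared 0 barcodes. Itgam, which encodes CD11b, had 5294 UMIs in the Selinexor library and 4345 in the DMSO library. Xpo1, which encodes exportin 1, had 2568 UMIs in the Selinexor library and 944 in the DMSO library. Of markers of other cells, erythroid genes summed to 2 UMIs in the Selinexor library and 0 in the DMSO library. T and NK cell genes summed to 15 UMIs in Selinexor and 9 in DMSO, with 3 of their 6 genes at 0 in both libraries. Other lists held more, with 477 UMIs of eosinophil genes in Selinexor and 183 in DMSO. Basophil and mast cell genes had 13 in Selinexor and 431 in DMSO, and stem and progenitor genes 542 in Selinexor and 333 in DMSO.

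Over whole libraries the replication genes stood at nearly the same level in both cultures. Together they had 24053 UMIs, or 1873 counts scaled to a library total of 1000000 gene UMIs (CPM), in the Selinexor library, against 26065 UMIs, or 1833 CPM, in the DMSO library. The ratio was 0.03 on the log2 scale (0.0061 to 0.057), where ratios are taken as log2(CPM + 1) of Selinexor minus DMSO and understate the ratio of genes with few counts. After thinning, the members summed to 1530 CPM in the Selinexor library and 1455 CPM in the DMSO library, a log2 ratio of 0.07 (0.0080 to 0.14). All 43 members had at least 50 UMIs over both libraries, the minimum for a measured gene, and their median log2 ratio was 0.20, beside 0.13 over all 10393 measured genes. The ratio was above 0 for 28 members and below 0 for 15.

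A single member, Cdc6, exceeded its DMSO level by 1.5-fold or more in the Selinexor library, and 0 members were lower by as much. Among all measured genes 9.83% were higher by this fold and 3.88% lower, so members past this fold were fewer than among genes at large. In thinned cells 40 members were measured, of which Mcm6, Chaf1a and Pola2 were at least 1.5-fold higher and 0 lower, beside 11.7% higher and 5.70% lower of 7259 genes. Other scalings moved the median of all genes by up to -0.13, and the members' summed ratio was -0.10 with TMM factors and -0.18 when every cell was weighted equally. Neither direction of the summed level therefore held across scalings.

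Single members spread from -0.54 to 0.66. Across 6 ways of scaling, weighting and thinning, including the one above, 7 members stayed above 0 (Cdc6, Mcm2, Pola2, Pcna, Rfc1, Rpa2 and Slbp) and 11 stayed below 0 (Mcm5, Gins2, Pold3, Pclaf, Rfc2, Rpa1, Lig1, Rrm2, Tyms, Dut and Ccne1). The ratios of the other members changed sign between settings. The TMM and median-of-ratios factors each moved every member down by nearly the same amount. These settings are therefore not separate measurements, and they make a ratio below 0 easier to keep. Over all UMIs, the intervals of Mcm5, Gins2, Pold3, Rpa1 and Ccne1 held 0, unlike those of the other members named here. Whether the authors' counting used the strand is not given in the sources used here, and 13 members overlap a protein-coding gene on the other strand (among them Pclaf, Lig1, Mcm7, Rfc2 and Ccne2) and Cdt1 overlaps the gene model Gm20388 on its own strand, so their values are less certain.

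**Figure D1:**
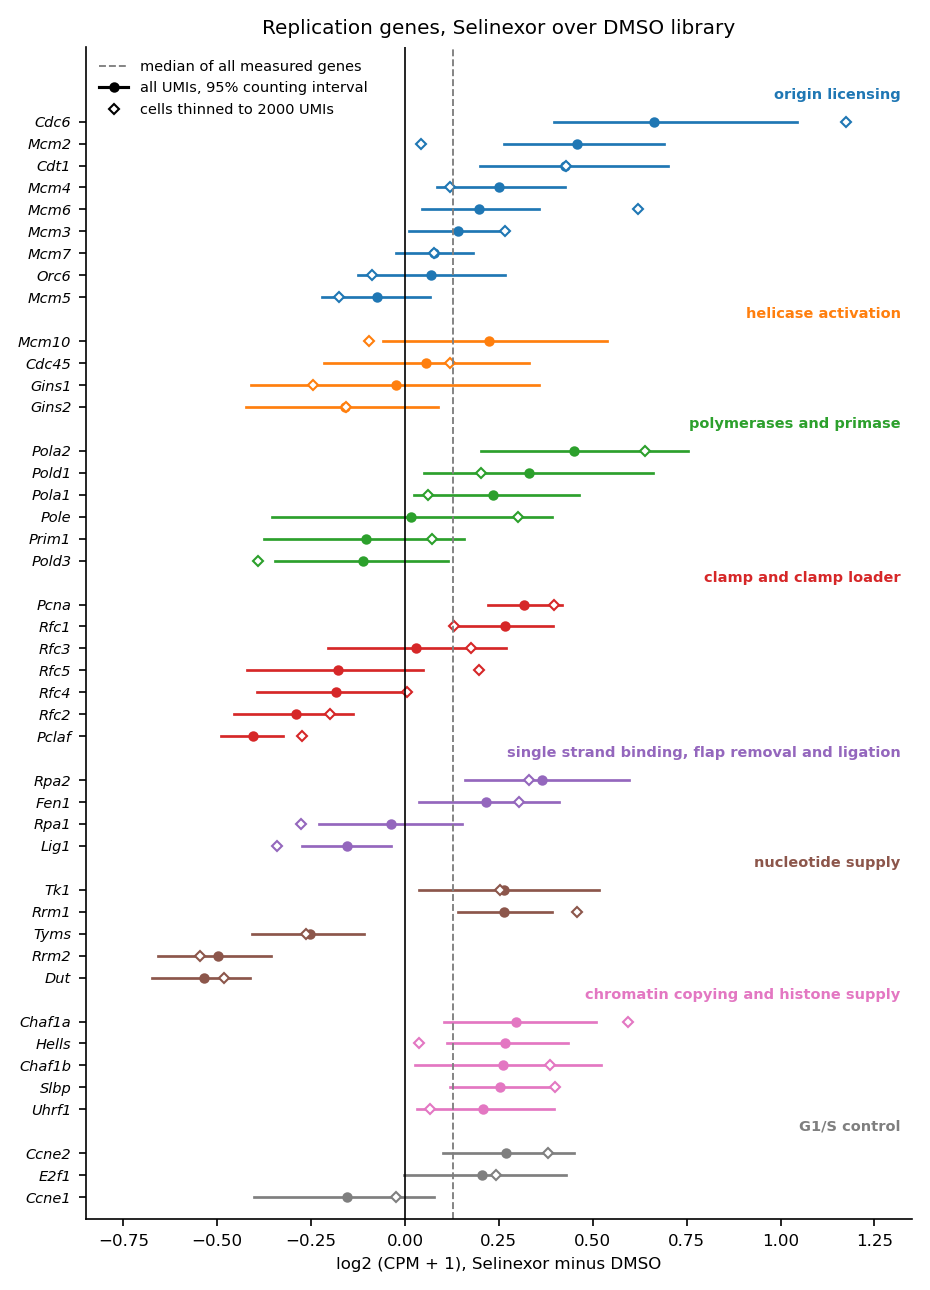
Log2 ratio of each of the 43 members, Selinexor over DMSO library, grouped by role. Filled points and lines are all UMIs with 95% counting intervals, open diamonds are cells thinned to 2000 UMIs, and the dashed line is the median of all measured genes (0.13). Cdc6 is the highest at 0.66, and Rrm2 and Dut are the lowest at -0.50 and -0.54.

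The genes of origin licensing held the highest member. Cdc6 (chr11:98907801-98923940, + strand, mm10), an ATPase that helps to load the MCM helicase, had 202 UMIs (15.7 CPM) in the Selinexor library and 136 UMIs (9.56 CPM) in the DMSO library, a log2 ratio of 0.66 (0.40 to 1.04). In thinned cells it was detected in 2.53% of Selinexor cells and 1.05% of DMSO cells. Cdt1 (chr8:122568015-122573554, + strand), the partner of Cdc6 in loading, had 297 UMIs in the Selinexor library and 241 in the DMSO library, a log2 ratio of 0.43 (0.20 to 0.70) that turned to -0.17 when both libraries were given the same mix of clusters.

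The 6 subunits of the MCM helicase did not share 1 ratio. Mcm2 (chr6:88883474-88898780, - strand) stood highest, with 413 UMIs in the Selinexor library against 329 in the DMSO library and a log2 ratio of 0.46 (0.26 to 0.69), which was 0.04 in thinned cells. Mcm3 had 941 UMIs in the Selinexor library and 944 in the DMSO library, a log2 ratio of 0.14. Mcm7 had 1521 UMIs in the Selinexor library and 1596 in the DMSO library, a log2 ratio of 0.08 (-0.02 to 0.18). Mcm5 was the only licensing gene below 0, with 743 UMIs in the Selinexor library, 868 in the DMSO library and a log2 ratio of -0.08 (-0.22 to 0.07). The ratios of Mcm4, Mcm6 and Orc6, a subunit of the origin recognition complex, were 0.25, 0.20 and 0.07. Summed, licensing genes had 453 CPM in the Selinexor library and 405 CPM in the DMSO library, a log2 ratio of 0.16 that was -0.13 with cells weighted equally.

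The genes that switch the helicase on differed little. Mcm10, Cdc45 and the GINS subunits Gins1 and Gins2 had ratios of 0.22, 0.05, -0.02 and -0.16, and each of these intervals held 0. Summed, they had 58.8 CPM in the Selinexor library and 58.1 CPM in the DMSO library.

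Among the polymerases, Pola2 (chr19:5940542-5964202, - strand), the accessory subunit of the polymerase alpha that starts each new strand, had 250 UMIs in the Selinexor library and 199 in the DMSO library. Its log2 ratio was 0.45 (0.20 to 0.75) over all UMIs and 0.64 in thinned cells. The ratios of the other 5 were 0.33 for Pold1, 0.23 for Pola1, 0.02 for Pole, -0.10 for the primase subunit Prim1 and -0.11 for Pold3.

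The clamp and its partners went in different directions. Pcna, the sliding clamp, had 1756 UMIs (137 CPM) in the Selinexor library and 1559 UMIs (110 CPM) in the DMSO library, a log2 ratio of 0.32 (0.22 to 0.42). In thinned cells it was found in 19.3% of Selinexor cells and 14.8% of DMSO cells. Pclaf (chr9:65890237-65903266, + strand), a small protein that binds PCNA, had 2021 UMIs (157 CPM) in the Selinexor library and 2968 UMIs (209 CPM) in the DMSO library, a log2 ratio of -0.40 (-0.49 to -0.33). It was found in 18.1% of thinned Selinexor cells and 20.9% of thinned DMSO cells. The Pcna ratio stayed above 0 and the Pclaf ratio below 0 in all 6 settings.

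The subunits of the clamp loader RFC also differed. Rfc1, the large subunit, had 1104 UMIs in the Selinexor library and 1015 in the DMSO library, a log2 ratio of 0.27 (0.14 to 0.39). Rfc2 (chr5:134581366-134601805, + strand), a small subunit, had 565 UMIs in the Selinexor library and 769 in the DMSO library, a log2 ratio of -0.29 (-0.46 to -0.14). Rfc3, Rfc4 and Rfc5 had ratios of 0.03, -0.18 and -0.18.

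Of the genes that coat single strands and finish the lagging strand, Lig1, the ligase that seals Okazaki fragments, had 1041 UMIs in the Selinexor library and 1284 in the DMSO library, a log2 ratio of -0.15 (-0.28 to -0.04). The flap nuclease Fen1 stood at 0.22. Of the single-strand binding complex RPA, Rpa2 stood at 0.36 and Rpa1 at -0.04.

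The genes of nucleotide supply held the lowest members. Dut (chr2:125247190-125258608, + strand), the dUTPase that keeps uracil out of DNA, had 779 UMIs (60.7 CPM) in the Selinexor library and 1257 UMIs (88.4 CPM) in the DMSO library, a log2 ratio of -0.54 (-0.67 to -0.41). Rrm2 (chr12:24708241-24714146, + strand), the small subunit of ribonucleotide reductase, had 593 UMIs (46.2 CPM) in the Selinexor library and 933 UMIs (65.6 CPM) in the DMSO library, a log2 ratio of -0.50 (-0.66 to -0.36). Both were less than 1.5-fold lower over all UMIs.

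Rrm1, the large subunit of the same enzyme, stood on the other side of 0. It had 1076 UMIs (83.8 CPM) in the Selinexor library and 991 UMIs (69.7 CPM) in the DMSO library, a log2 ratio of 0.26 (0.14 to 0.39) that was -0.02 with the same mix of clusters. Thinned Rrm2 was found in 5.57% of Selinexor cells and 8.33% of DMSO cells, and thinned Rrm1 in 12.6% of Selinexor cells and 9.80% of DMSO cells. Tyms, the thymidylate synthase, had 641 UMIs in the Selinexor library and 849 in the DMSO library, a log2 ratio of -0.25 (-0.41 to -0.11). Tk1, the thymidine kinase of the salvage route, stood at 0.26. Summed, the 5 genes had 264 CPM in the Selinexor library and 303 CPM in the DMSO library. This role's log2 ratio of -0.20 was the only one of 8 below 0 in all 6 settings, from -0.48 to -0.12. In thinned cells its interval, -0.30 to 0.05, held 0.

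The 5 genes that rebuild chromatin behind the fork all stood above 0. Slbp, which binds the stem-loop of histone mRNAs, had 891 UMIs in the Selinexor library and 826 in the DMSO library, a log2 ratio of 0.25 (0.12 to 0.39). The histone chaperone subunits Chaf1a and Chaf1b, the remodeller Hells and the methylation cofactor Uhrf1 ranged from 0.21 to 0.30. Their sum was 216 CPM in the Selinexor library and 181 CPM in the DMSO library, a log2 ratio of 0.26 that was -0.04 with cells weighted equally. Of the genes of G1/S control, E2f1 stood at 0.20 and the cyclins Ccne2 and Ccne1 at 0.27 and -0.15.

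The level of the replication genes differed far more between cell classes than between cultures. Cells were clustered without the members, the other replication genes and the mitotic genes, and clusters were named from marker genes. In the promyelocyte-like cluster, led by Elane and Mpo, the members summed to 2951 CPM in 91 Selinexor cells and 3336 CPM in 126 DMSO cells. In the myelocyte-like cluster, led by Camp and Ngp, they summed to 1927 CPM in 129 Selinexor cells and 1472 CPM in 191 DMSO cells. In the mature neutrophil-like class they summed to 624 CPM in 979 Selinexor cells and 507 CPM in 603 DMSO cells. This class joins 3 clusters, of which cluster 2 (277 Selinexor and 122 DMSO cells) was led by Ear6, Retnlg and the granule genes Olfm4 and Ltf. At resolution 1.5 a cluster led by Ear6, Olfm4 and Ltf was named myelocyte-like, and the log2 ratio of the mature class, Selinexor over DMSO, was 0.071. The level stood highest in the earliest and lowest in the latest of these 3 stages in both cultures, also in thinned cells, where the promyelocyte-like cells had 3132 CPM in Selinexor and 3389 CPM in DMSO and the mature class 506 CPM in Selinexor and 446 CPM in DMSO.

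The monocyte-like cluster, in which Fn1 and the macrophage gene Mrc1 led, had 2006 CPM in 375 Selinexor cells and 2447 CPM in 22 DMSO cells. The macrophage-like cluster had 1871 CPM in 69 Selinexor cells and 1594 CPM in 222 DMSO cells. Both clusters lay between the promyelocyte-like and the mature neutrophil-like level in each library. The macrophage-like name is uncertain, since the chemokine gene Ccl17 and the MHC class II gene H2-Ab1 led, with the complement genes C1qa, C1qb and C1qc among the leading 10, and clusters led by Ccl17 took no name at Leiden resolutions 0.5 and 1.5. Of the clusters without a name, cluster 8 (led by Tcaf1) had 2449 CPM in 202 Selinexor cells and 3016 CPM in 30 DMSO cells. Cluster 7 (led by Csta3) had 1197 CPM in 20 Selinexor cells and 1717 CPM in 228 DMSO cells. Cluster 10 (led by Ccl4) had 565 CPM in 56 Selinexor cells and 873 CPM in 38 DMSO cells. Cluster 6 (led by Dmkn), with 10 Selinexor and 269 DMSO cells, and the dendritic cell-like cluster, with 34 Selinexor and 5 DMSO cells, held too few cells of a library to be compared.

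**Figure D2:**
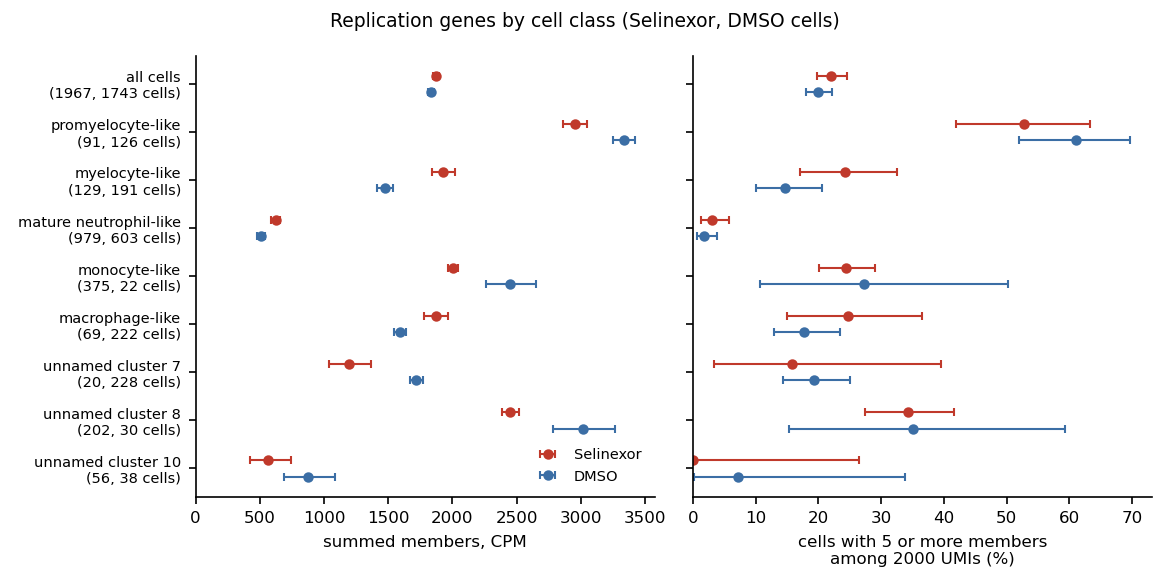
Summed level of the members (left, CPM) and share of cells with 5 or more different members among 2000 UMIs (right, %), by cell class, with Selinexor above DMSO in each row and 95% counting intervals. The promyelocyte-like cells stand highest at 2951 CPM in Selinexor and 3336 CPM in DMSO, and the mature neutrophil-like cells have 624 CPM in Selinexor and 507 CPM in DMSO.

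Nearly all members took part in this stage difference. The promyelocyte-like level was at least 2-fold over the mature level for 39 members in the Selinexor library and 41 in the DMSO library, with a median log2 difference of 2.17 in Selinexor and 2.69 in DMSO. The difference was 4.03 in Selinexor and 4.71 in DMSO for Dut, and 4.20 in Selinexor and 4.24 in DMSO for Ccne2, the cyclin E2 gene. It was under 2-fold in both libraries for E2f1, at 0.96 in Selinexor and 0.38 in DMSO, and for Pola2, at 0.74 in Selinexor and 0.51 in DMSO. For Pold3 and Rfc2 it was under 2-fold in Selinexor only, at 0.38 and 0.72, with 1.33 and 1.47 in DMSO. Shares of thinned cells ran the same way except for Pola2, found in 1.10% of promyelocyte-like and 2.24% of mature Selinexor cells and in 0.79% and 2.10% of these classes among DMSO cells, and for E2f1 in DMSO, at 3.17% and 4.49%. Mcm7 was found in 42.9% of promyelocyte-like and 4.10% of mature neutrophil-like Selinexor cells, and in 46.0% and 3.29% of these classes among DMSO cells. Cdc6 was found in 0 of 268 mature neutrophil-like Selinexor cells and 0 of 334 DMSO cells.

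Members were ranked over the classes with at least 20 cells of 2000 UMIs in the library, which left out cluster 10 and the basophil and mast cell-like cells in both libraries, clusters 6 and 7 in Selinexor and the dendritic cell-like cells in DMSO. The class with the highest level of a member was most often the promyelocyte-like cluster in the Selinexor library, for 28 members, followed by cluster 8 for 8. In the DMSO library it was cluster 8 for 16 members, the promyelocyte-like cluster for 15 and the monocyte-like cluster for 11. The DMSO ranks of cluster 8 rest on 30 cells with 608 UMIs over all members, and those of the monocyte-like cluster on 22 cells with 625. These ranks are therefore uncertain. The mature neutrophil-like class was lowest for 20 members in the Selinexor library, where the dendritic cell-like cells were lowest for the other 23, and for 39 members in the DMSO library.

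**Figure D3:**
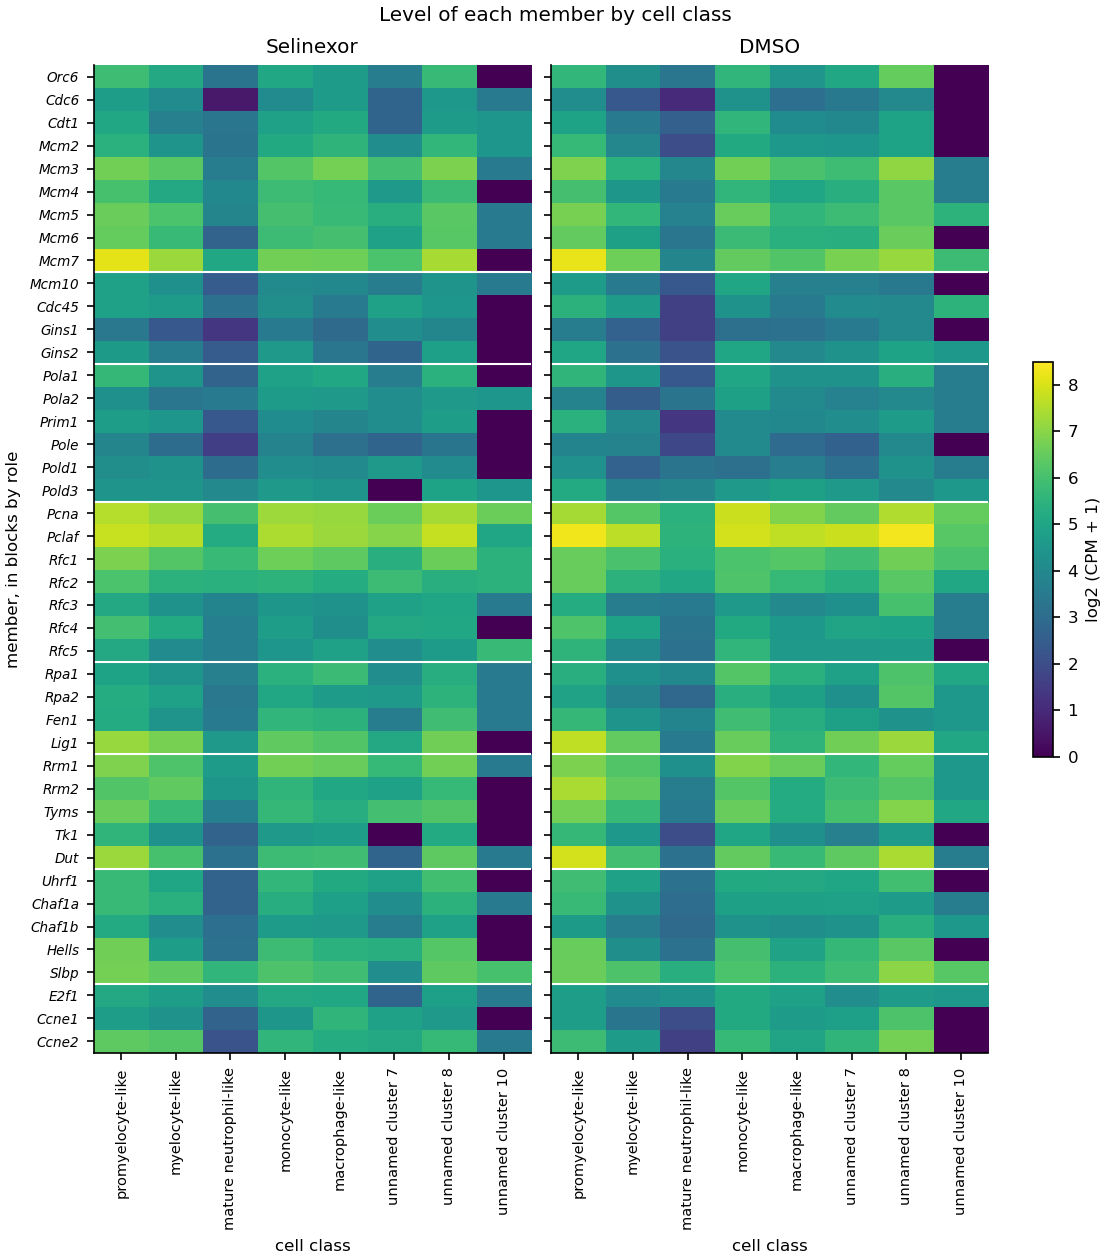
Level of each member (rows, in blocks by role) in each compared cell class (columns), as log2 (CPM + 1), in the Selinexor library (left) and the DMSO library (right). Most members are highest in the promyelocyte-like column or in cluster 8, and the mature neutrophil-like column is low for most members in both libraries.

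The promoters of the members were searched for 4 forms of the E2F motif, TTTCCCGC, TTTGGCGC, TTTGCCGC and TTTCGCGC, on both strands. Windows ran from 250 bases before to 50 after the RefSeq gene start, which can differ from the GENCODE start behind the gene coordinates given above. RefSeq windows of build GRCm38.p6, which has the mm10 coordinates, were found for 37 of the 43 members. At least 1 of the words was in 12 of the 37 windows (32.4%), beside 626 of 27025 windows of all genes (2.32%), and 5 members had 2 or more matches. A match is a string of letters and not a measured binding site. The windows of all genes were not chosen for like base content or expression, and a link to the levels by class was not tested. The stretches before the start of 5 members, from 3 roles, are printed 5′ to 3′ along the gene's own strand, with the matched words in capitals. They show the motif singly, as an overlapping pair of opposite strands, and repeated. Before the start here means before the RefSeq start. By the GENCODE coordinates, the Cdc6 stretch lies inside the gene, which starts at 98907801. The Hells stretch spans the GENCODE start at 38930915. The stretch of Mcm6 is chr1:128359719-128359841 (- strand), that of Mcm5 chr8:75109330-75109393 (+ strand), that of Cdc6 chr11:98907987-98908046 (+ strand), that of Hells chr19:38930902-38930961 (+ strand) and that of Pola1 chrX:93632260-93632319 (- strand).
Mcm6: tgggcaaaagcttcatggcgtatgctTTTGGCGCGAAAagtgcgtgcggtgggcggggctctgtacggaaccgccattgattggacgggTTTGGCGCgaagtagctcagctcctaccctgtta
Mcm5: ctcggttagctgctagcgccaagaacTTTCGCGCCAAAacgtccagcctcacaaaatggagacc
Cdc6: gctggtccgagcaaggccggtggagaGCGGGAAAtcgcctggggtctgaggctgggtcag
Hells: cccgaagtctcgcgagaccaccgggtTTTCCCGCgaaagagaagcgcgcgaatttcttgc
Pola1: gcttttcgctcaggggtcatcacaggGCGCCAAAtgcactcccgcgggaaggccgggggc

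The overlapping pair stands in Mcm6 and Mcm5, which differed in their ratio between the cultures (0.20 for Mcm6 and -0.08 for Mcm5). A word was found in Cdc6, the highest member, and in Pclaf, one of the lowest, and the windows of Dut, Rrm2, Pcna and Mcm2 did not hold these letters.

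Among cells with at least 2000 UMIs, a similar share in both cultures held several members at once. This left out 783 Selinexor and 314 DMSO cells, most of them mature neutrophil-like, so the shares do not describe whole cultures. A cell was counted as replicating when at least 5 different members had a UMI among its 2000, a range of a score and not a cell type. This was so for 261 of 1184 Selinexor cells (22.0%, Clopper-Pearson 19.7 to 24.5%) and 286 of 1429 DMSO cells (20.01%, 18.0 to 22.2%). Of cells at the border, 63 Selinexor and 84 DMSO cells had 4 members, and 66 Selinexor and 56 DMSO cells had 5. The most members found in a cell were 19 in Selinexor and 16 in DMSO, and the median was 2 in Selinexor and 1 in DMSO. A UMI of the proliferation genes Mki67 or Top2a was found in 65.9% of replicating and 26.7% of other Selinexor cells, and in 67.8% of replicating and 23.0% of other DMSO cells. Among promyelocyte-like cells the gap was small, with 60.4% and 53.5% in Selinexor, and reversed in DMSO, with 63.6% and 67.3%. In the myelocyte-like, mature neutrophil-like, monocyte-like and macrophage-like cells the share was higher in replicating cells of both libraries. Without thinning, all 1967 Selinexor and 1743 DMSO cells entered, and Selinexor cells were shallower. The shares were then 34.7% in Selinexor and 42.4% in DMSO, and the parts of depth and of the added cells were not tested.

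**Figure D4:**
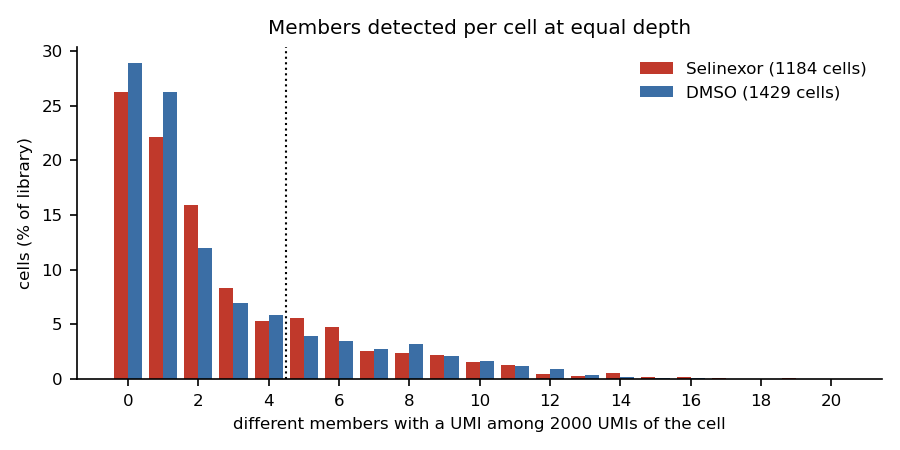
Share of cells (%) by the number of different members with a UMI after thinning to 2000 UMIs, Selinexor (1184 cells, left bar of each pair) and DMSO (1429 cells, right bar); the axis ends at 20 and the dotted line marks the limit of 5. In Selinexor 26.3% of cells and in DMSO 28.9% held 0 members, and both distributions have a long tail.

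By class, 48 of 91 promyelocyte-like Selinexor cells (52.7%) and 77 of 126 DMSO cells (61.1%) were replicating. In the myelocyte-like cluster it was 31 of 128 Selinexor cells (24.2%, 17.1 to 32.6%) and 28 of 190 DMSO cells (14.7%, 10.0 to 20.6%). In the mature neutrophil-like class it was 8 of 268 Selinexor cells (2.99%) and 6 of 334 DMSO cells (1.80%). All 8 Selinexor cells and 4 of the 6 DMSO cells lay in cluster 2, and 7 of the 8 Selinexor and 4 of the 6 DMSO cells held a UMI of Mki67 or Top2a. The shares were 24.4% in Selinexor and 27.3% in DMSO for the monocyte-like, 24.6% in Selinexor and 17.7% in DMSO for the macrophage-like and 34.3% in Selinexor and 35.0% in DMSO for cluster 8. In each of these classes the counting intervals of the 2 libraries overlapped. Thinning kept 268 of 979 Selinexor cells and 334 of 603 DMSO cells of the mature class.

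Over all UMIs, the ratios of the 2 cultures had both signs within classes. The summed members were lower in Selinexor promyelocyte-like cells, with a log2 ratio of -0.18 (-0.24 to -0.12), and higher in Selinexor myelocyte-like cells, with a ratio of 0.39 (0.30 to 0.48). They stood at 0.30 (0.18 to 0.42) in the mature neutrophil-like class and 0.23 (0.15 to 0.31) in the macrophage-like cluster. They stood at -0.29 (-0.40 to -0.17) in the monocyte-like cluster, where the sign turned under 4 of the alternatives run. In thinned cells, which hold fewer UMIs, the ratio was -0.11 (-0.27 to 0.04) in promyelocyte-like and -0.23 (-0.54 to 0.10) in monocyte-like cells. It was 0.18 (-0.06 to 0.42) in the mature neutrophil-like class, and each of these intervals held 0. The thinned ratios of 0.42 (0.22 to 0.62) in myelocyte-like and 0.24 (0.02 to 0.46) in macrophage-like cells had intervals above 0. Whether the classes differ in their ratios could not be tested with 1 library per group.

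In promyelocyte-like cells the largest difference was that of Rrm2. It had 91 UMIs (72.8 CPM) in 91 Selinexor cells and 296 UMIs (172 CPM) in 126 DMSO cells, a log2 ratio of -1.23 (-1.60 to -0.90). Thinned to equal depth, Rrm2 was found in 9 of 91 Selinexor cells (9.89%) and 35 of 126 DMSO cells (27.8%). Dut had 184 UMIs (147 CPM) in the Selinexor cells and 410 UMIs (238 CPM) in the DMSO cells, a log2 ratio of -0.69 (-0.96 to -0.44). Rrm1, with 143 UMIs in Selinexor and 194 in DMSO, had a ratio of 0.02 (-0.30 to 0.34). Of 40 members measured there, 5 were at least 1.5-fold lower (also Pold3, Prim1 and Cdc45) and 1, Cdc6, at least 1.5-fold higher, beside 9.16% lower and 5.21% higher of all genes. Their median log2 ratio was -0.08, beside -0.10 over all genes.

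In myelocyte-like cells the members stood on the other side. Of 26 measured, 9 were at least 1.5-fold higher in Selinexor and 0 lower, beside 3.79% higher and 11.6% lower of all genes, and their median was 0.26, beside -0.13 over all genes. Ccne2 had 73 UMIs (73.7 CPM) in Selinexor cells and 37 UMIs (25.1 CPM) in DMSO cells, a log2 ratio of 1.52 (0.97 to 2.17). Pcna had 142 UMIs (143 CPM) in Selinexor cells and 112 UMIs (75.9 CPM) in DMSO cells, a ratio of 0.91 (0.55 to 1.29). The licensing genes Orc6, Mcm3, Mcm6, Mcm4 and Mcm7 stood between 0.60 and 0.92, Chaf1a at 1.04 and E2f1 at 0.66. Rrm2 and Dut, low in Selinexor promyelocyte-like cells, were level here, at 0.03 (-0.39 to 0.44) and 0.04 (-0.44 to 0.52).

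In the macrophage-like cluster 8 of 37 measured members were at least 1.5-fold higher in Selinexor and 1, Gins2, at least 1.5-fold lower, beside 6.17% higher and 11.7% lower of all genes. Their median was 0.30, beside -0.04 over all genes. Cdt1 had 31 UMIs (34.9 CPM) in Selinexor cells and 46 UMIs (16.6 CPM) in DMSO cells, a log2 ratio of 1.03 (0.37 to 1.76). Mcm2 had 40 UMIs (45.0 CPM) in Selinexor cells and 61 UMIs (22.0 CPM) in DMSO cells, a ratio of 1.00 (0.42 to 1.63). Ccne1, the cyclin E1 gene, stood at 0.91.

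In the mature neutrophil-like class 15 members were measured, and 3 of them were at least 1.5-fold higher in Selinexor and 0 lower, beside 17.9% higher and 7.70% lower of all genes, a share near that of all genes. Their median was 0.32, beside 0.15 over all genes. Mcm7 had 64 UMIs in Selinexor cells and 27 in DMSO cells, a log2 ratio of 1.17 (0.56 to 1.94), and Lig1 had 46 UMIs in Selinexor and 21 in DMSO, a ratio of 1.05. Rrm2 had 43 UMIs in Selinexor and 22 in DMSO, a ratio of 0.89 (0.18 to 1.77). Different clusters made up the class in the 2 libraries. Cluster 0 held 655 Selinexor and 88 DMSO cells, cluster 1 held 47 Selinexor and 393 DMSO cells, and cluster 2 held 277 Selinexor and 122 DMSO cells. The members' ratio was 0.09 in cluster 0, -0.06 in cluster 1 and 0.35 (0.16 to 0.54) in cluster 2. The part of this mixture and of the depth of 1218 UMIs in Selinexor and 2458 in DMSO was not tested.

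In the monocyte-like cluster all 43 members were measured, but on 22 DMSO cells. There 10 were at least 1.5-fold lower in Selinexor and 1 higher, beside 12.4% lower and 17.0% higher of all genes, and their median was -0.20, beside 0.00 over all genes. Pcna had 729 UMIs (150 CPM) in Selinexor cells and 58 UMIs (227 CPM) in DMSO cells, a log2 ratio of -0.59 (-0.98 to -0.19). The higher one, Pold1, rested on 2 DMSO UMIs, with an interval of -0.79 to 4.18.

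Over these 5 named classes 13 members were measured in every class. Of these, Mcm4, Rfc1 and Slbp had ratios above 0 in all 5, and Pclaf had ratios below 0 in all 5. For Pclaf they were -0.54 (promyelocyte-like), -0.06 (myelocyte-like), -0.24 (mature neutrophil-like), -0.47 (monocyte-like) and -0.44 (macrophage-like). The intervals lay below 0 in the promyelocyte-like, monocyte-like and macrophage-like cells. The other 9 had ratios of both signs. A shared sign can rest on values near 0. Mcm4 stood at 0.04 (-0.39 to 0.47) in promyelocyte-like cells, and its whole-library ratio was -0.04 with cells weighted equally.

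**Figure D5:**
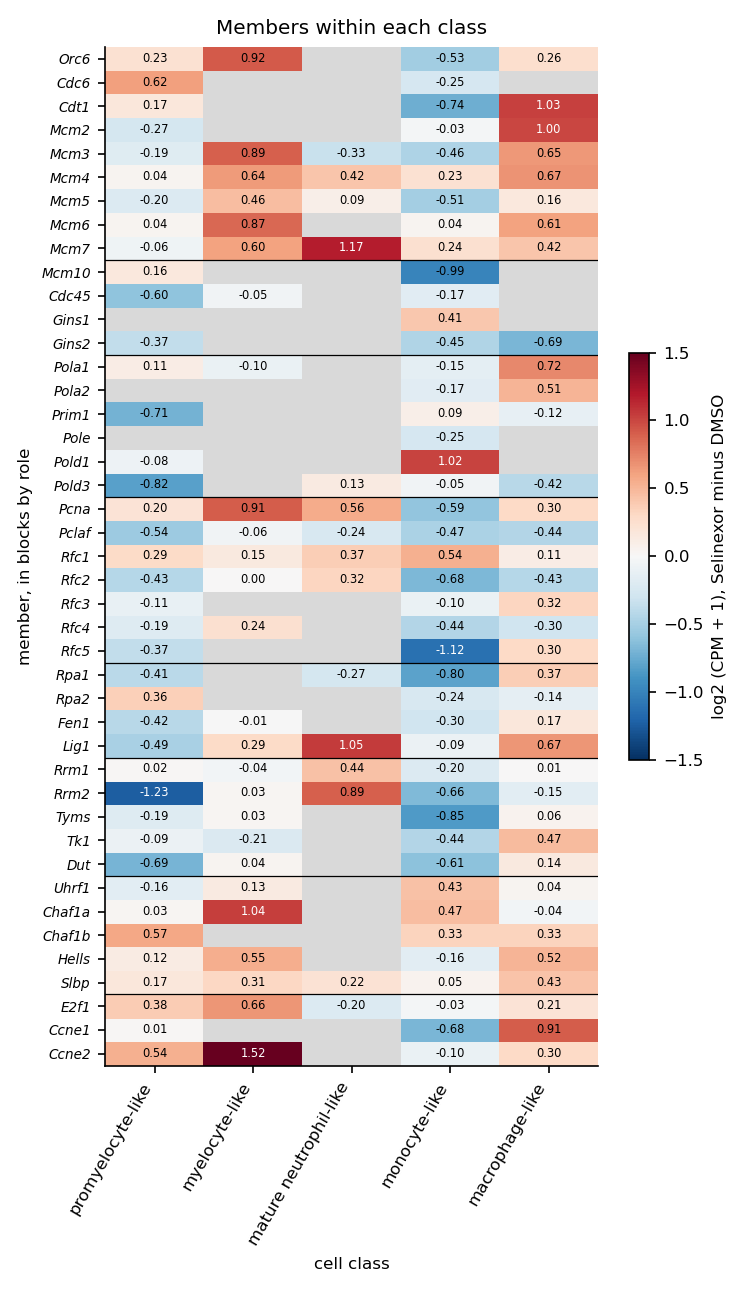
Log2 ratio of each measured member, Selinexor over DMSO, within the 5 named classes (columns), with members in blocks by role and grey where fewer than 50 UMIs were counted. Red (higher in Selinexor) are 20 of 26 measured members in the myelocyte-like column, up to 1.52 for Ccne2, and 28 of 37 in the macrophage-like column. Rrm2 in promyelocyte-like cells is the darkest blue at -1.23.

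Most other genes of replication were also within 1.5-fold between the libraries. Of 18 further genes of origin recognition, licensing and firing, 1 was at least 1.5-fold higher, Orc1, with 59 UMIs in the Selinexor library and 31 in the DMSO library and a log2 ratio of 0.82 (0.42 to 1.75). The list's median was 0.17. Of 16 measured genes of polymerases, clamp loading and flap processing, 18 of fork protection, 15 of nucleotide supply and 12 of chromatin copying, 0 passed 1.5-fold in either direction, with medians of 0.04, -0.01, 0.09 and 0.08. Timeless and Tipin, which form the fork protection complex, had ratios of 0.56 and -0.33. Asf1a, a histone chaperone, had 251 UMIs in the Selinexor library and 402 in the DMSO library, a ratio of -0.51. Of 23 genes around G1/S control 2 were at least 1.5-fold higher, cyclin D2 (Ccnd2) at 0.80 and the cyclin D partner kinase Cdk6 at 0.78, and 1 was lower, the CDK inhibitor Cdkn2d at -0.75.

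Over whole libraries most genes of G2 and mitosis had lower ratios than the replication genes, but not in every class. Of 71 measured, 66 had ratios below 0, 9 were lower in the Selinexor library by 1.5-fold or more and 0 higher, with a median of -0.23 beside the members' 0.20. Ube2c, which helps to degrade mitotic cyclins, had 1509 UMIs in the Selinexor library and 2930 in the DMSO library, a log2 ratio of -0.80. The summed ratio of this list was -0.21, beside 0.03 for the members, and -0.086 beside 0.073 in thinned cells. With cells weighted equally the values were close, at -0.20 for the list and -0.18 for the members. When both libraries were given the same mix of clusters the order turned, with 0.01 for the list and -0.076 for the members. Abundant genes weigh heavily in these sums. Hmgb2 had 45999 UMIs over both libraries, H2afz 35227 and Tuba1b 16109, beside list totals of 99641 in the Selinexor library and 127433 in the DMSO library. In myelocyte-like cells the list summed to 10946 CPM in Selinexor and 12726 CPM in DMSO (-0.22), and in macrophage-like cells to 6081 CPM in Selinexor and 7694 CPM in DMSO (-0.34), while the members' sums in both classes were higher in Selinexor. In promyelocyte-like cells both were lower, with 11943 CPM of the mitotic list in Selinexor and 15635 CPM in DMSO. The list's ratio there was -0.39, beside -0.18 for the members. In the mature neutrophil-like class both were higher, with 4991 CPM of the list in Selinexor and 3237 CPM in DMSO. Here the list's ratio stood above that of the members, at 0.62 beside 0.30. It also stood above in the monocyte-like cluster (-0.10 beside -0.29), cluster 7 (0.21 beside -0.52) and cluster 8 (0.08 beside -0.30). In cluster 10 it stood below, at -0.71 beside -0.63. The median ratio of the list's measured genes was -0.52 in promyelocyte-like, -0.40 in myelocyte-like and 0.59 in mature neutrophil-like cells. It was -0.10 in monocyte-like and -0.53 in macrophage-like cells.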

How the data were processed

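Single-cell libraries of 1 Selinexor and 1 DMSO culture were analysed. The authors deposited raw UMI counts of genes in cells. Cell Ranger 6.1.2 is named in the file headers, and mm10 in the submitters' processing notes. Which annotation, barcode calling and strand setting were used is not given in the sources used here. Multiplexing tags (12) were kept out of gene totals.

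Kept cells had 200 or more genes and less than 10% of UMIs from mitochondrial genes (1967 of 1989 Selinexor and 1743 of 1784 DMSO barcodes). No doublet caller was run, and an alternative left out the 2% deepest cells. Counts were summed per library or class and scaled to CPM of the gene total, and ratios used log2(CPM + 1). Sums have exact Poisson, ratios exact conditional binomial and shares Clopper-Pearson intervals (95%). A gene was measured with at least 50 UMIs over both libraries. With 1 library per group there is no test, and calls mean at least 1.5-fold. For shares, each cell was thinned to 2000 UMIs and shallower cells were left out. The ratios and intervals were tested on simulated data.

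Cells of both libraries were clustered together with scanpy 1.11.5 and leidenalg 0.10.2 (2000 variable genes, 30 components, 15 neighbours, resolution 1.0), without replication, histone, mitotic, mitochondrial and ribosomal genes. Clusters took the class with the highest mean marker ratio where 3 or more markers, each with 10 or more UMIs, were 2-fold over the other cells and the top 10 genes held no more markers of another class. This scoring was set after the data were seen. Classes with at least 20 cells in both libraries were compared. Of 14 marker lists, those of B cells (62 UMIs in Selinexor and 99 in DMSO), megakaryocytes (8 in Selinexor, 13 in DMSO), stroma and endothelium (73 in Selinexor, 57 in DMSO), eosinophils (477 in Selinexor, 183 in DMSO), stem and progenitor cells (542 in Selinexor, 333 in DMSO) and basophils and mast cells (13 in Selinexor, 431 in DMSO) named no compared class.

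Coordinates came from GENCODE by Ensembl identifier (43 of 43 matched). Named in full are the 12 members with the most UMIs and the 4 highest and 4 lowest ratios; of each pathway list, the 3 genes with the most UMIs and the extremes could be named. Other members named within classes were chosen after their values were seen. The members and lists were chosen with earlier results of these data known. Alternative scalings used edgeR 4.0.16 (TMM factors) and median-of-ratios factors.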

Additional observations from a re-analysis of the deposited data

Results flagged for a closer look

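The members' summed log2 ratio, Selinexor over DMSO, had opposite signs in different cell classes, which drew attention to it in each class; the difference between classes was not tested. It was -0.18 in promyelocyte-like, 0.39 in myelocyte-like, 0.30 in mature neutrophil-like, -0.29 in monocyte-like and 0.23 in macrophage-like cells. It was -0.52 in unnamed cluster 7, -0.30 in unnamed cluster 8 and -0.63 in unnamed cluster 10. Few cells of a library stood behind some of these values, namely 22 DMSO cells for monocyte-like cells, 20 Selinexor cells for cluster 7 and 30 DMSO cells for cluster 8. In thinned cells the intervals held 0 in promyelocyte-like, mature neutrophil-like and monocyte-like cells and in clusters 7, 8 and 10. They lay above 0 in myelocyte-like and macrophage-like cells.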

How the results depend on the processing

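No paired analysis was possible because each group holds 1 library, and for the same reason no library could be left out. Of the values recomputed under alternatives, 45 kept to the main value within its limits and 49 moved, and the cause was not tested. The summed log2 ratio of the members (0.03) was -0.10 with TMM factors, -0.11 with median-of-ratios factors, 0.088 with a stricter cell filter (1000 genes, 5% mitochondrial UMIs), 0.078 with cells of at least 2000 UMIs, -0.18 with cells weighted equally, 0.073 after thinning, -0.076 with the same cluster mix, 0.14 without cells holding Mki67 or Top2a and -0.0090 without the 2% deepest cells. The members' median (0.20) was -0.13 with cells weighted equally. Members at least 1.5-fold higher (1) numbered 0 with TMM factors, median-of-ratios factors, cells weighted equally and the same mix, 3 after thinning and 4 without Mki67 or Top2a cells. Members at least 1.5-fold lower (0) numbered 2 with TMM and with median-of-ratios factors, 3 with cells weighted equally, 1 with the same mix and 2 without Mki67 or Top2a cells.

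The share of replicating cells was 5.90% in Selinexor and 6.62% in DMSO at 1000 UMIs, 42.6% in Selinexor and 38.05% in DMSO at 4000 UMIs, 34.7% in Selinexor and 42.4% in DMSO without thinning, 35.7% in Selinexor and 32.9% in DMSO at 3 members and 9.21% in Selinexor and 9.87% in DMSO at 8 members. With the strict cell filter it was 22.4% in DMSO. Within classes, the promyelocyte-like ratio was -0.11 after thinning, -0.011 when cell cycle genes entered the clustering and -0.88 without Mki67 or Top2a cells, which left 6 Selinexor and 8 DMSO cells. The myelocyte-like ratio was 0.11 at Leiden resolution 1.5, 1.01 with cell cycle genes, 0.24 when centred per library and 0.62 without Mki67 or Top2a cells. The mature neutrophil-like ratio was 0.082 at resolution 0.5, 0.071 at 1.5 and 0.15 with cell cycle genes. The monocyte-like ratio was 0.11 at resolution 0.5, 0.47 with cell cycle genes, 0.050 when centred and 0.71 without Mki67 or Top2a cells. The macrophage-like ratio was 0.50 with cell cycle genes, 0.43 when centred and 0.56 without Mki67 or Top2a cells. No macrophage-like value could be had at resolutions 0.5 and 1.5 and no monocyte-like value at 1.5.

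The limits are the single library per group, the shallower Selinexor cells, the 783 Selinexor and 314 DMSO cells under 2000 UMIs that no share describes, and the small number of UMIs per member within classes.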
